A study of Homo sapiens with 9 samples.

Results

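The histone chaperones of the SET, ANP32 and NAP families were followed in NT2 cells through 15 array probes of 10 genes, SET, ANP32A, ANP32B, ANP32E, NAP1L1, NAP1L2, NAP1L3, NAP1L4, NASP and ASF1A. The genes were taken by name from the 34623 gene names on the array, and every probe that is not a control and carries one of these names was kept, so that 15 of 42405 probes entered. The family was chosen by the paraoxon minus control differences of the 3 SET probes, which disagree. Values of that comparison are therefore described here without a p-value, and nothing is read from its counts of calls. SET and ANP32E each had 3 probes, ANP32A had 2, and the other 7 genes had 1 probe each. All 15 probes were well above background on all 9 arrays and none was saturated, so no member was lost to the filter on dim probes.

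NT2 (NTERA-2 clone D1) is a human embryonal carcinoma line, 1 clone, that retinoic acid drives towards neural progenitors and neuron-like cells. Control cells received 10 μM retinoic acid in medium with 10% serum for 4 days, and the exposed cells received the same medium with 1 μM paraoxon, the active form of the insecticide parathion, or with 5 μM mipafox, an organophosphate that inhibits neuropathy target esterase. Each of the 3 treatments had 3 one-colour Agilent arrays, lettered A to C. The submitters' design text calls them biological replicates while the methods call them technical, so p-values measure only the spread between these arrays. All 3 control arrays were hybridised on slide 1 together with mipafox A. Mipafox B and C lay on slide 2 beside the 3 paraoxon arrays, and the effects of paraoxon and of the slide therefore cannot be told apart. A level below is log2 of the processed signal minus log2 of its array's 75th percentile, and 1 unit is a doubling. The 75th percentile ran from 802 to 1590 signal units over the arrays, the share of probes well above background from 65.7% to 73.6%, and correlations between arrays from 0.974 to 0.996. Of the markers of the line, POU5F1 (4.86 to 5.93), SOX2 (3.96 to 4.87) and LIN28A (3.60 to 3.99) were well above background on all 9 arrays. NANOG (-0.25 to 0.57) and TDGF1 (-0.10 to 0.68) were lower, though also well above background on all 9. The neural genes NES (4.00 to 4.48), PAX6 (3.25 to 3.70) and TUBB3 (3.05 to 3.64) were well above background on all 9 arrays too. So was CYP26A1, the retinoic acid hydroxylase, at 5.81 to 6.16. The glial gene GFAP and the epidermal gene KRT5 were well above background on 0 of 9 arrays. Of the other genes fixed for cell types the culture should lack, the liver gene ALB was above it on 1 array (-8.05 to -7.32), the muscle gene MYH2 on 6 (-7.86 to -6.29), the blood cell gene PTPRC on 9 (-6.22 to -4.68) and the fibroblast collagen gene COL1A1 on 9 (1.47 to 1.93). RNA of a whole culture does not tell fewer cells of a type from less RNA per cell.

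Histone chaperones escort histones from synthesis to the nucleosome and back, keeping these basic proteins from binding DNA or RNA at random. SET and NAP proteins share a fold that binds histones and carry an acidic tail, and ANP32 proteins combine leucine-rich repeats with such a tail. SET and ANP32A are also known as inhibitors of protein phosphatase 2A and as parts of a complex that shields histone tails from acetylation. ANP32E removes a variant histone from nucleosomes, NASP keeps a soluble reserve of histones, and ASF1A hands new histones to the factors that build nucleosomes. NAP1L2 and NAP1L3 are known mostly from neural tissue, whereas NAP1L1 and NAP1L4 are found in most cells.

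Probe sequences are shown for SET, whose probes read different stretches of one transcript, and for the other ANP32 probes that cross an exon junction. The sequences are those of the array files, sense to the transcript, 5′ to 3′. Junction probes are given whole (60 bases), the others by their last 30 bases, and capitals mark AATAAA, the letters of the polyadenylation signal.
SET junction probe A_23_P217015: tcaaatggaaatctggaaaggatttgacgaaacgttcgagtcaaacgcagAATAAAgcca
SET middle probe A_33_P3727762: tgtgtctgtctactttctcttgtttaaaaa
SET downstream probe A_24_P917866: acaagttgcgttgttacAATAAAactaaat
ANP32A junction probe A_32_P133670: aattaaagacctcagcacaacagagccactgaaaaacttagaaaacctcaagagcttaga
ANP32B junction probe A_23_P20615: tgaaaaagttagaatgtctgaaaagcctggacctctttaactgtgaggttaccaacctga
ANP32E junction probe A_23_P160934: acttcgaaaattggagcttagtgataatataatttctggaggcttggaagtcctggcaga

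The SET probes were all assigned to NM_003011 and lie on the plus strand of hg19. The junction probe starts at base 825 of the transcript and spans chr9:131455241-131455956, which is 716 bases of genome for 60 bases of probe. The middle probe starts at base 1610 (chr9:131457367-131457426) and the downstream probe at base 1985 (chr9:131457742-131457801), each in 1 unbroken block. No hg19 gene annotation was used here, so the part of the transcript is given by its base number only. AATAAA stood at base 51 of the junction probe and at base 48 of the downstream probe. On the strand of the probes, these letters were held by 6.98% of all probes on the array, and their reverse complement TTTATT by 3.72%. A match of 6 letters is a description and shows no site in use. The downstream probe had 26.7% G and C, and 0.971% of the 29134 tested probes had a share no higher.

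The 3 SET probes gave 3 different pictures of the same gene. The downstream probe read 1.65, 1.70 and 1.66 on the control arrays, 2.62, 2.85 and 2.99 on the paraoxon arrays, and 1.94, 2.65 and 2.55 with mipafox, in the order A to C. Both exposed groups lay above the controls without overlap, with mipafox A closest to them. The middle probe read 5.36, 5.33 and 5.40 in controls, 5.16, 5.17 and 5.68 with paraoxon and 5.42, 5.42 and 5.37 with mipafox. Here the paraoxon arrays lay on both sides of the controls. The junction probe read 3.05, 2.53 and 2.14 in controls, 2.03, 1.21 and 2.64 with paraoxon and 2.37, 2.41 and 1.31 with mipafox. It overlapped between all groups and was lowest on paraoxon B and mipafox C.

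**Figure D1:**
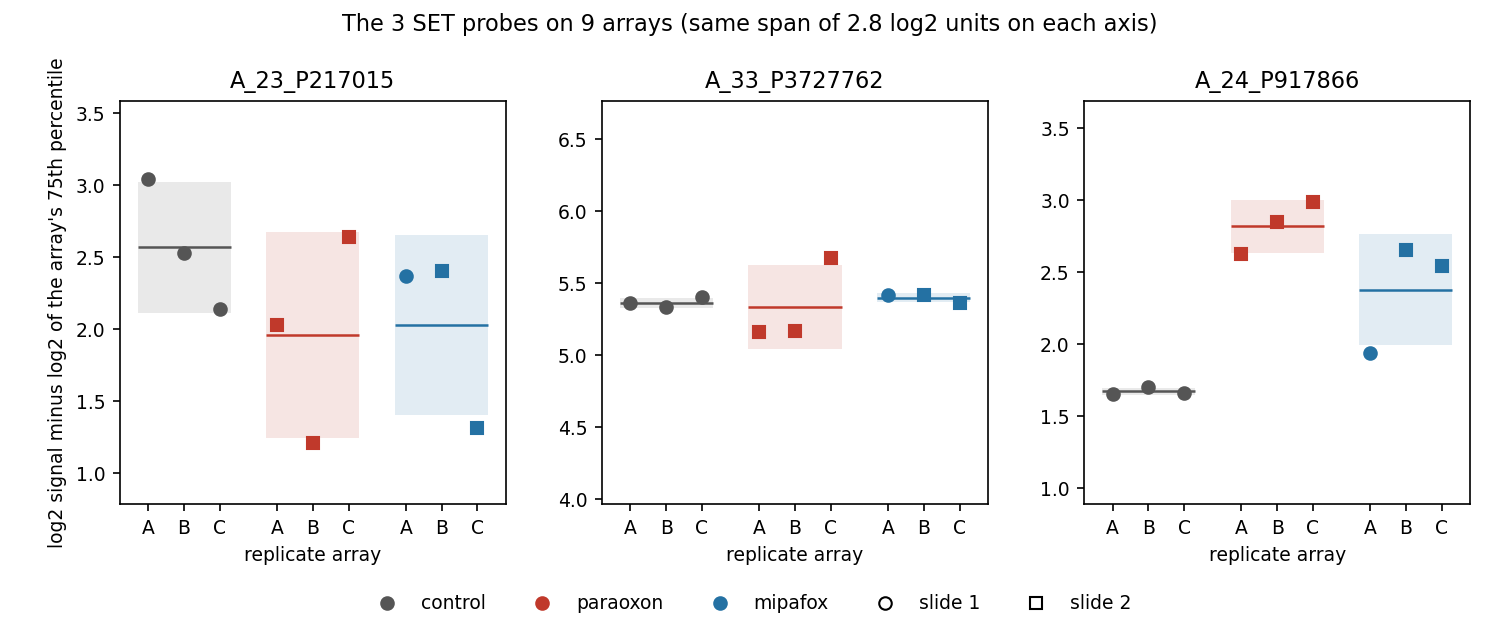
Normalized log2 signal (y axis, log2 units) of the junction, middle and downstream SET probes on each array (x axis, replicates A to C of control, paraoxon and mipafox). Lines are group means and bands are ± 1 SD (n = 3), circles are slide 1 and squares slide 2, and for the downstream probe every square lies above every circle, at 2.55 or more against 1.94 or less.

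As group means, the paraoxon minus control difference of the SET downstream probe was 1.15 (SE 0.198), or 2.22 times the control signal. That of the middle probe was -0.03 (SE 0.160) and that of the junction probe was -0.61 (SE 0.416). The distance between the highest and the lowest of the 3 was 1.76. With mipafox, which shares the control arrays, the differences from control were 0.71 (SE 0.198, limma adjusted p = 0.453) for the downstream probe, 0.03 (SE 0.160, adjusted p = 0.989) for the middle probe and -0.54 (SE 0.416, adjusted p = 0.876) for the junction probe. Their distance was 1.25. Between paraoxon and mipafox, at different doses, the downstream probe differed by 0.44 (SE 0.198, adjusted p = 0.998), and the 3 probes lay within 0.51 of each other.

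The SET downstream probe also separated the slides. It was at most 1.94 on the 4 arrays of slide 1 and at least 2.55 on the 5 arrays of slide 2. Its processed signal before scaling ran from 3077 to 4555 on slide 1 and from 6485 to 9790 on slide 2. Of all tested probes with a value on every array, 4.84% lay higher on slide 2 without overlap and 4.93% lower. Within slide 1, mipafox A was 0.27 above the control mean, and within slide 2 the paraoxon mean was 0.22 above that of mipafox B and C. The mean of mipafox B and C was 0.66 above mipafox A. With slide as a block, the paraoxon minus control difference of this probe was 0.49 (SE 0.240) in place of 1.15, and mipafox minus control was 0.27 (SE 0.188) in place of 0.71. The distance over the SET probes became 0.59 with paraoxon and 0.47 with mipafox. These block values rest on a single array, mipafox A, which alone of the exposed arrays shared the slide of the controls.

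As a median, probes of low G and C content moved with the slides as well, a reading that rests on mipafox A. Over the 443 tested probes with up to 30% G and C, the median distance from the control mean was between -0.09 and 0.08 on the control arrays, 0.18, 0.33 and 0.25 with paraoxon, and 0.04 on mipafox A against 0.22 and 0.17 on the other mipafox arrays. Over the 104 of them that hold AATAAA, as the SET downstream probe does, the slides did not part. There mipafox A was at 0.16, between mipafox B (0.28) and mipafox C (0.10). The part of base composition in the SET downstream value was not tested. A member probe of ANP32E with 30% G and C, A_33_P3407299, differed from control by 0.06 with paraoxon and 0.01 with mipafox. The array's annotation lists KLHDC7A, on another chromosome, as a further match of the SET downstream probe. The probe named KLHDC7A itself, looked up after these values were seen, was well above background on 0 of 9 arrays, at -8.13 to -6.49.

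ANP32A, the leucine-rich phosphatase inhibitor, had a junction probe at base 467 (chr15:69076906-69079782) and a second probe at base 1706 (chr15:69071575-69071634), both on the minus strand. The junction probe read -0.45, -0.65 and -0.60 in controls, -0.53, -0.38 and -0.63 with paraoxon and -0.62, -0.67 and -1.11 with mipafox. The second probe read 1.52, 1.93 and 1.73 in controls, 2.06, 1.66 and 1.89 with paraoxon and 1.62, 1.81 and 1.24 with mipafox. All groups overlapped at both probes, and mipafox C was the lowest array of each. The differences from control were 0.05 (SE 0.166) and 0.14 (SE 0.193) with paraoxon. With mipafox they were -0.23 (SE 0.166, limma adjusted p = 0.858) and -0.17 (SE 0.193, adjusted p = 0.937). The array lists the junction probe also for ANP32C and ANP32AP1, so its signal cannot be assigned to ANP32A alone. The probe named for ANP32C was well above background on all 9 arrays, at -2.20 to -1.25.

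ANP32B, a nuclear relative of ANP32A, had 1 probe across a junction on the plus strand (chr9:100760959-100767303). It read 3.88, 3.60 and 3.46 in controls, 3.47, 2.90 and 3.47 with paraoxon and 3.93, 3.37 and 2.58 with mipafox. The groups overlapped, and paraoxon B and mipafox C were the lowest arrays, as for the SET junction probe. The difference from control was -0.36 (SE 0.318) with paraoxon and -0.35 (SE 0.318, limma adjusted p = 0.912) with mipafox. With slide as a block the paraoxon value turned to 0.59 (SE 0.453). A probe named for the pseudogene ANP32BP1 shares a run of at least 20 bases with this probe, on the same or the opposite strand. That probe ran from 2.68 on mipafox C to 3.88 on mipafox A, so gene and copy cannot be told apart.

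ANP32E, which takes a variant histone out of nucleosomes, had probes on the minus strand at bases 564 (across a junction, chr1:150202979-150204124), 1435 (chr1:150192675-150192734) and 3033 (chr1:150191077-150191136) of its transcript. The junction probe read 1.93, 1.54 and 1.22 in controls, 1.12, 0.89 and 1.39 with paraoxon and 1.34, 1.09 and 0.76 with mipafox. The probe at base 1435 read -0.23, -0.32 and -0.42 in controls, -0.20, -0.46 and -0.13 with paraoxon and 0.05, -0.25 and -0.72 with mipafox. The probe at base 3033 read 1.92, 2.18 and 2.19 in controls, 2.23, 2.45 and 2.28 with paraoxon and 1.96, 2.05 and 2.42 with mipafox. Only at base 3033 did the paraoxon arrays all lie above the controls, and by a small margin, while the first 2 probes overlapped between all groups. From base 564 to base 3033 the paraoxon minus control difference was -0.43 (SE 0.229), 0.06 (SE 0.200) and 0.22 (SE 0.163). The mipafox minus control difference was -0.50 (SE 0.229, limma adjusted p = 0.732), 0.01 (SE 0.200, adjusted p = 0.998) and 0.05 (SE 0.163, adjusted p = 0.985). With slide as a block the paraoxon values were -0.01, 0.59 and -0.05.

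**Figure D2:**
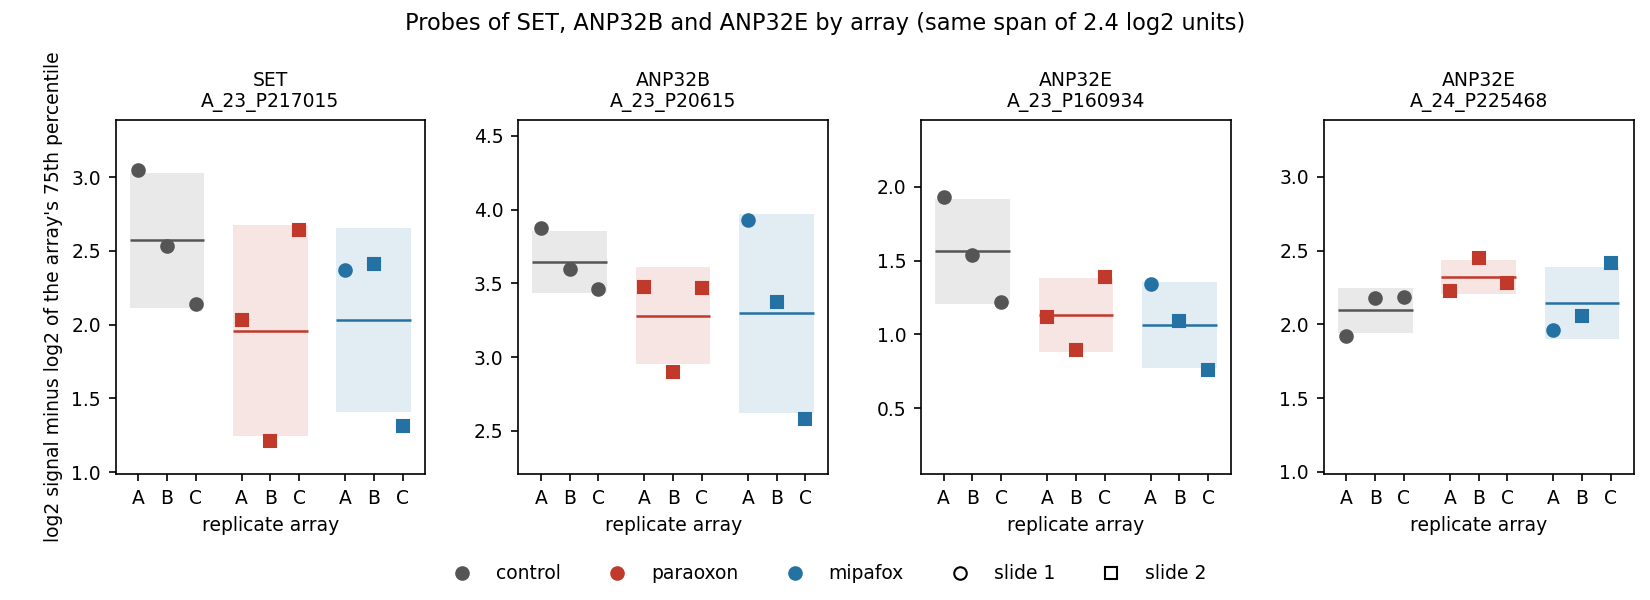
Normalized log2 signal (y axis, log2 units) on each array (x axis, replicates A to C of control, paraoxon and mipafox) for the junction probes of SET, ANP32B and ANP32E and for the ANP32E probe at base 3033. Lines are group means and bands ± 1 SD (n = 3), circles are slide 1 and squares slide 2, and paraoxon B and mipafox C are the lowest arrays in the first 3 panels and the highest in the fourth.

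The junction probes of SET, ANP32B and ANP32E followed each other over the arrays. Over the 9 arrays, which share treatments and slides, Pearson's r was 0.87 between SET and ANP32B, 0.91 between SET and ANP32E and 0.84 between ANP32B and ANP32E. The ANP32E probe at base 3033 ran the other way, with r between -0.74 and -0.88 to these 3. The ANP32A junction probe followed them less, with r of 0.31 to SET, 0.52 to ANP32B and 0.45 to ANP32E. A_33_P3407299 of ANP32E, which crosses no junction, had r of 0.69, 0.86 and 0.56 to the same probes. The shared course was therefore neither common to all junction probes nor limited to them. The histone gene clusters, read by 74 tested probes named HIST1 to HIST4, ordered the arrays in a way similar to the SET, ANP32B and ANP32E junction probes. Their median distance from the control mean was 0.67 on control A, -1.43 on paraoxon B and -1.69 on mipafox C. Over 19 genes of S phase and cycling, the median stayed between -0.15 and 0.12 on every array. What moves these probes together was not tested.

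Taking 2 probes of the same transcript on the same array removes the gene's overall level, as far as both read the same transcripts. The array lists 2 RefSeq transcripts for the ANP32E junction probe and 3 for each other ANP32E probe. For SET it lists 2 for the junction and middle probes and 3 for the downstream probe, and for ANP32A 3 and 1. The differences can therefore also hold levels of other transcripts. For ANP32E, the junction probe minus the probe at base 1435 was 2.16, 1.86 and 1.64 in controls, 1.32, 1.35 and 1.52 with paraoxon and 1.30, 1.34 and 1.48 with mipafox. Both exposed groups lay below the controls without overlap, mipafox A on slide 1 included. The share of other transcripts with such a separation is not given here, so it is not read as particular to ANP32E. For SET, the junction probe minus the downstream probe was 1.39, 0.83 and 0.47 in controls, -0.59, -1.64 and -0.35 with paraoxon and 0.43, -0.24 and -1.23 with mipafox. No exposed array reached the lowest control, though mipafox A came close (0.43 against 0.47). This difference is the disagreement of SET probes by which the family was chosen, so nothing is read from it. The ANP32E junction probe minus the probe at base 3033, in contrast, overlapped between all groups, at -0.97 to 0.01 in controls, -1.56 to -0.89 with paraoxon and -1.66 to -0.62 with mipafox. The SET junction minus middle difference and the ANP32A difference overlapped between all groups too, with mean changes of -0.58 and -0.09 with paraoxon.

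Other transcripts showed the same direction. Among 1720 transcripts outside the chaperone genes whose most upstream and most downstream tested probes lie at least 1000 bases apart, the upstream probe changed less upward, or more downward, than the downstream probe in 81.9% with paraoxon and in 78.3% with mipafox. Their median upstream minus downstream difference, set against the control mean, was 0.14, -0.05 and -0.08 on the control arrays, -0.24, -0.34 and -0.44 with paraoxon and -0.16, -0.28 and -0.33 with mipafox. Both comparisons use the same control arrays. The part of this general shift in the member values was not tested.

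**Figure D3:**
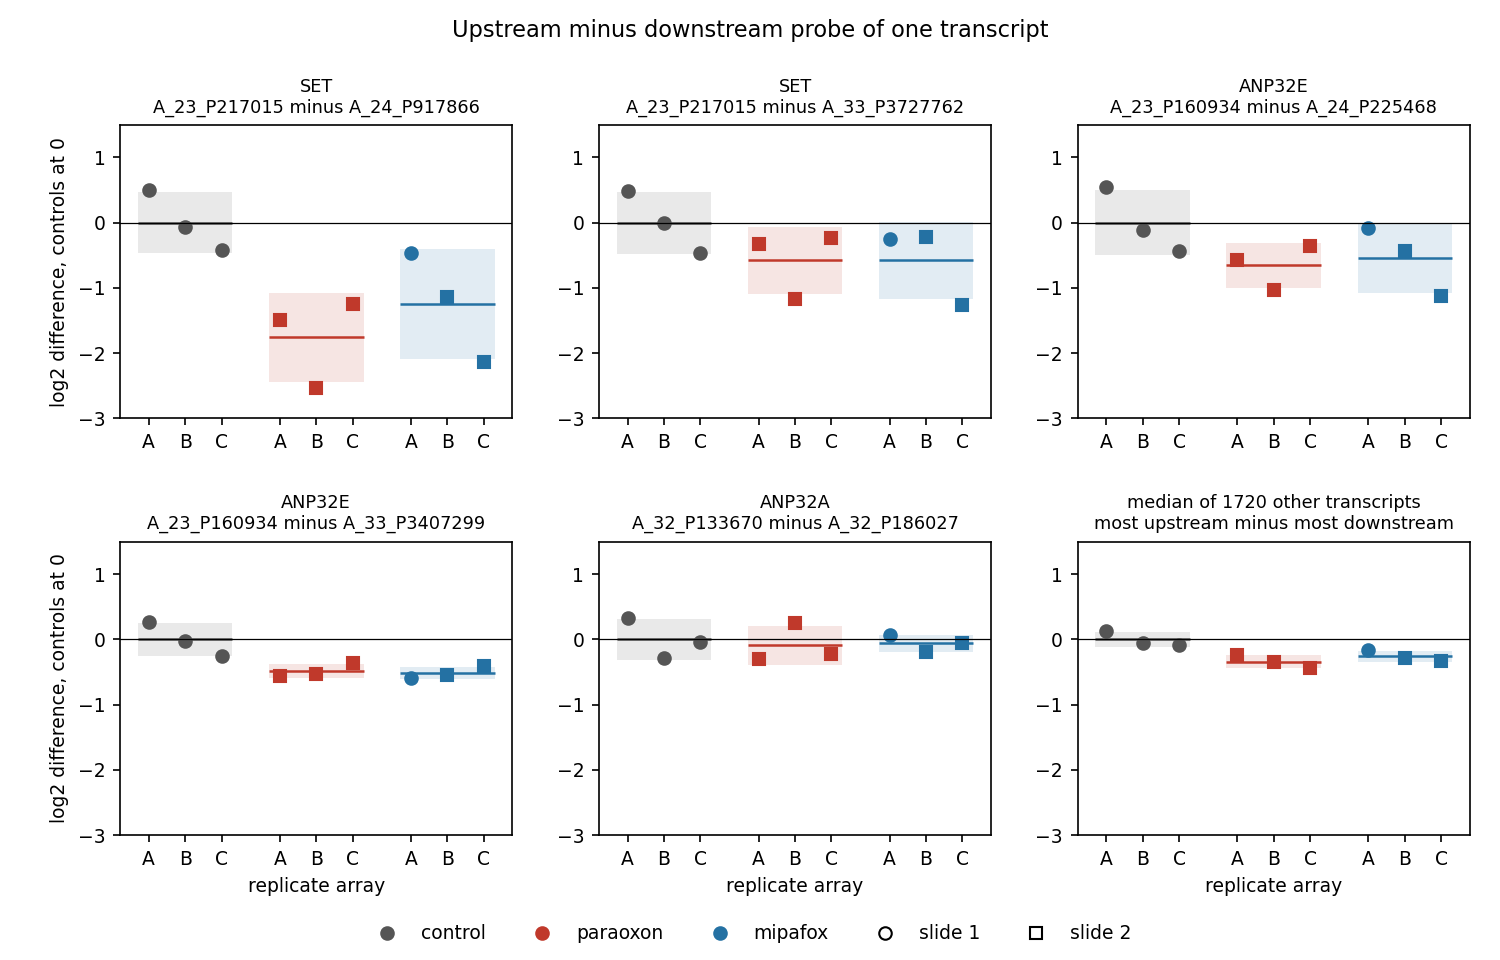
Upstream minus downstream probe of one transcript on each array (y axis, log2 difference with the control mean set to 0, x axis, replicates A to C of each treatment), for SET, ANP32E, ANP32A and, in the last panel, the median of 1720 other transcripts with probes at least 1000 bases apart. Lines are group means and bands ± 1 SD (n = 3), circles are slide 1 and squares slide 2, and in the last panel all 6 exposed arrays, from -0.16 to -0.44, lie below the controls.

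NAP1L1, the common carrier of newly made histones, had 1 probe on the minus strand (chr12:76440023-76440082). It read 5.38, 5.55 and 5.47 in controls, 5.49, 5.69 and 5.59 with paraoxon and 5.70, 5.39 and 5.15 with mipafox, and all groups overlapped. NAP1L4, its close relative (chr11:2966609-2966668), read -0.24, -0.48 and -0.34 in controls, -0.40, -0.39 and -1.40 with paraoxon and -0.55, -0.42 and -0.10 with mipafox. Paraoxon C alone stood low, and without it the paraoxon minus control difference of NAP1L4 went from -0.38 (SE 0.267) to -0.04. NAP1L2 and NAP1L3, the neural members, both lie on chromosome X. NAP1L2 (chrX:72432672-72432731) read -1.58, -1.14 and -1.07 in controls, -1.26, -0.80 and -1.11 with paraoxon and -1.41, -1.37 and -1.05 with mipafox. NAP1L3 (chrX:92926497-92926556) read -1.08, -0.64 and -0.96 in controls, -0.90, -0.80 and -0.82 with paraoxon and -1.24, -0.91 and -1.0 with mipafox. The paraoxon arrays of NAP1L3 all lay above the mipafox arrays, by a mean of 0.21 (SE 0.157, limma adjusted p = 0.998), and those of NAP1L2 did not. For the 4 NAP genes the difference from control ran from -0.38 to 0.20 with paraoxon and from -0.16 to -0.003 with mipafox.

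NASP, the histone reserve protein (chr1:46083827-46083886), gave tight readings of 5.49, 5.40 and 5.45 in controls, 5.57, 5.70 and 5.54 with paraoxon and 5.62, 5.69 and 5.54 with mipafox. All 6 exposed arrays lay above all 3 controls, by a mean of 0.16 (SE 0.122) with paraoxon and 0.17 (SE 0.122, limma adjusted p = 0.860) with mipafox. Within slide 1 mipafox A was 0.17 above the control mean, and within slide 2 the paraoxon minus mipafox difference was -0.01. The probe shares a run of 20 bases or more, on the same or the opposite strand, with 1 other probe on the array. ASF1A, which passes new histones to the assembly factors (chr6:119229482-119229541), read -4.47, -4.17 and -4.04 in controls, -4.19, -3.98 and -4.06 with paraoxon and -5.28, -4.20 and -3.35 with mipafox. Mipafox A was the lowest array and mipafox C the highest, and all groups overlapped. The paraoxon minus control difference of ASF1A was 0.15 (SE 0.397). With slide as a block it was -1.35 (SE 0.410), a value that rests on mipafox A alone. The mipafox minus control difference was -0.05, and 0.45 without mipafox A.

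**Figure D4:**
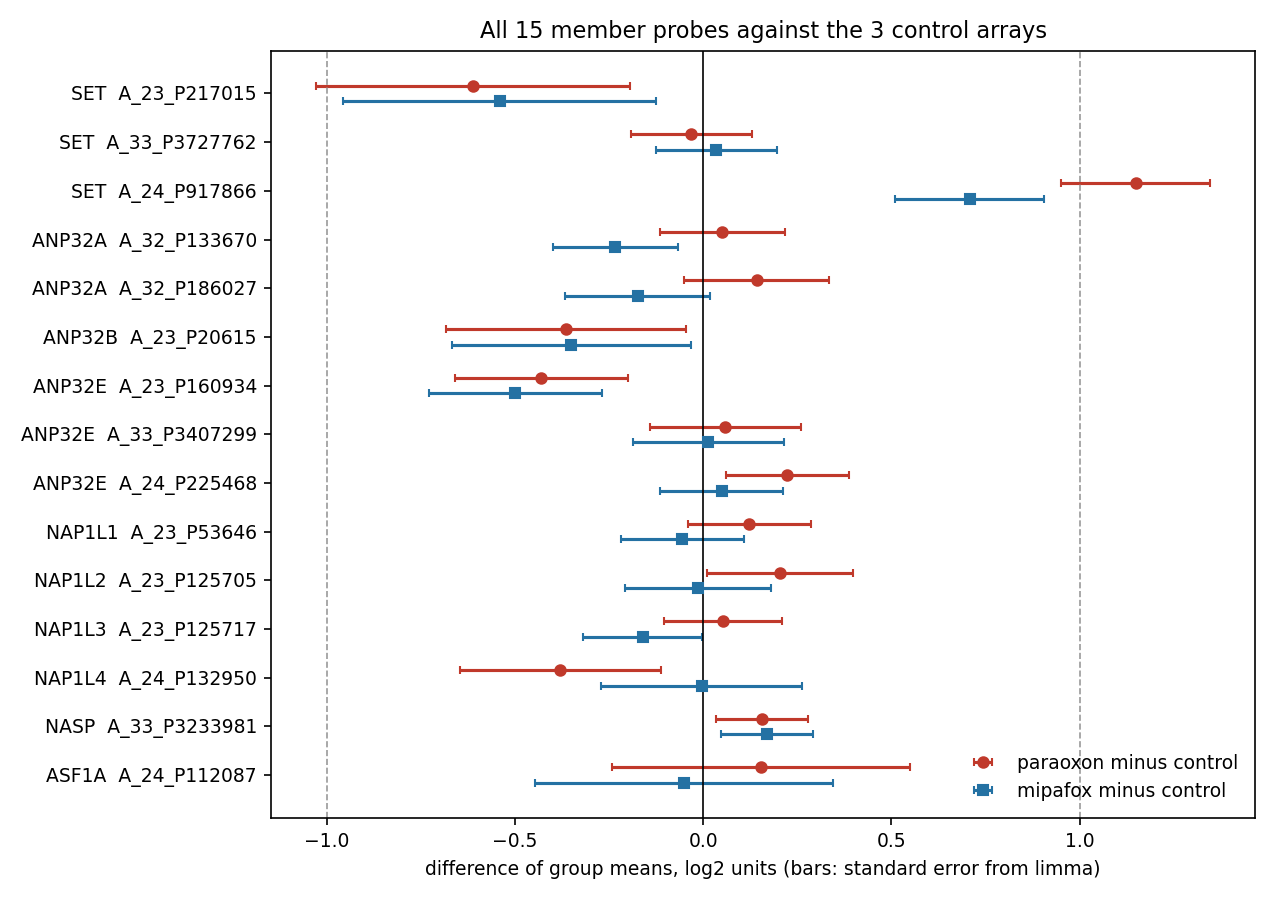
Difference of group means from control (x axis, log2 units, bars are limma's standard error) for each of the 15 member probes (y axis, gene and probe), paraoxon in red circles and mipafox in blue squares, 3 arrays a group. The SET downstream probe, at 1.15 and 0.71, stands to the right of all others, and the dashed lines mark a difference of 1 either way.

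Over the 15 probes, the chaperones did not move in one direction. With paraoxon 5 were lower and 10 higher than control, with a median of 0.06 beside 0.01 over all tested probes. With mipafox 10 were lower and 5 higher, with a median of -0.05 beside 0.001, and between paraoxon and mipafox the median was 0.17 beside 0.01. With paraoxon, where SET was chosen, 3 of 4 junction probes were lower than control and 9 of 11 others were higher. With mipafox 4 of 4 junction probes were lower, and the others were 6 lower and 5 higher. The junction probes start at bases 467 to 825 of their transcripts and all others at base 1435 or later. Junction and position in the transcript therefore cannot be told apart here.

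A call needed a limma adjusted p under 0.05 and a difference beyond 1. With paraoxon against control 0 of 15 member probes and 0% of all tested probes were called, and with mipafox against control, and with paraoxon against mipafox, 0 of 15 and 0% were called as well. At an unadjusted p under 0.05, the paraoxon comparison had 7.31% of all tested probes higher and 6.02% lower, and 1 member, the SET downstream probe, was higher and 0 lower, from which nothing is read because SET was chosen there. In the mipafox comparison 2.96% were higher and 4% lower, and the same SET probe was the 1 member that was higher, with 0 lower. Nothing is read from this either, because the control arrays are those of the comparison that chose SET. With slide as a block the mipafox minus control difference of that probe was 0.27 (SE 0.188). Between paraoxon and mipafox 2.87% were higher and 1.15% lower, and 0 members were either. Groups did not overlap, paraoxon above control, for 12.4% of all tested probes and for 3 members (SET downstream, ANP32E at base 3033, NASP), and paraoxon below control for 11.1% and 0 members. Mipafox lay above control without overlap for 5.34% and for 2 members (SET downstream and NASP), and below for 6.46% and 0 members. Paraoxon lay above mipafox without overlap for 5.12% and 1 member (NAP1L3), and below for 3.84% and 0 members.

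Other genes of the same machinery were taken as lists, each gene by its brightest probe. Of 40 further histone chaperones, 39 were on the array and 36 were tested, and 0 were called in either comparison with control. Against control, 2 were higher and 0 lower at an unadjusted p under 0.05 with paraoxon, with a median difference of 0.01, and 0 were either with mipafox, with a median of 0.05. Over all tested probes 7.31% were higher and 6.02% lower with paraoxon, and 2.96% and 4% with mipafox. The counts of these lists are therefore not read as a result about their genes. Of the 23 tested phosphatase 2A subunits, regulators and partners of SET, 0 were called, 1 was higher and 1 lower with paraoxon (median 0.06) and 0 were higher and 1 lower with mipafox (median 0.07). The higher one was KIAA1524, which encodes the phosphatase 2A inhibitor CIP2A. It was well above background on 0 of 3 control, 3 of 3 paraoxon and 1 of 3 mipafox arrays. Its levels were -7.21, -7.44 and -7.89 in controls, -6.03, -5.92 and -5.78 with paraoxon and -8.33, -6.49 and -7.88 with mipafox. It entered the test only through the paraoxon arrays, all on slide 2, so no fold is given, and the paraoxon minus control difference with slide as a block was 0.45. Of 19 tested genes of S phase and cycling, 0 were called, with a median of -0.07 with paraoxon and 0.01 with mipafox. At an unadjusted p under 0.05, 1 was higher and 1 lower with paraoxon, and 0 were higher and 1 lower with mipafox.

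The probes most like each SET probe over the 9 arrays, by Pearson's r among 29106 tested probes with all values, were different genes for each. For the junction probe they were those of KIAA0748 (r = 0.987), LGALS3 (0.980) and BOD1L (0.980). For the middle probe they were FOSB (0.951), UXT (0.945) and MMGT1 (0.937). For the downstream probe they were CD300A and 2 probes without a gene symbol (0.992 each). With 9 arrays in 3 groups on 2 slides these values are descriptions.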

How the data were processed

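Total RNA of each culture was labelled with Cy3 and read on a one-colour Agilent array. The authors deposited, for each array, the output of Agilent Feature Extraction 10.5.1.1, whose processed and mean signals are linear intensity values. The authors also deposited a log2 table of the same arrays, normalized in R with the Agi4x44PreProcess package as its manual describes, with the method itself not named, and it served as an alternative only.

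Here control spots and outlier spots were left out, spots of a probe were averaged after log2, and the 75th percentile of each array was subtracted. Probes were kept if all arrays of 1 or more treatments showed them well above background and each treatment had 2 or more values. These 29134 probes were fitted with limma 3.58.1 in R 4.3.3 over all 9 arrays with 1 mean per treatment, and p-values were adjusted by Benjamini-Hochberg over all of them. Precision is limited by the number of arrays. The fit was tested on simulated data. The 24 alternatives, 9 of which leave out an array, covered normalization, background, filter, slide, replicate letter and weights.

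The members and lists were chosen with earlier results of these data known. Named were all member probes, list genes with an unadjusted p under 0.05 and a difference beyond 1, and the 3 probes most like each SET probe. Accessions of all 15 member probes matched their symbols in RefSeq (GRCh38.p14). Coordinates, on hg19, were copied from the array files. Figures were drawn with matplotlib 3.10.9.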

Additional observations from a re-analysis of the deposited data

How the results depend on the processing

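The median change over the member probes moved by less than the spread between arrays (SD 0.30) in every comparison and alternative. That spread is wider than the medians themselves (0.06, -0.05 and 0.17), so it cannot show whether they hold. The paraoxon minus control median of 0.06 became 0.01 with slide as a block and 0.12 with slide as a random block. Signs of single member changes, 0 of them called, turned in up to 8 of 24 alternatives (NAP1L2 with mipafox). The 0 member probes called with paraoxon against control became 1, the SET downstream probe, with no background subtraction, with the control and paraoxon arrays alone, with array weights, and without mipafox A (left-out arrays, 0 to 1). Over all tested probes the calls there rose from 0 to 78 (0.268%), 276 (0.947%), 671 (2.3%) and 276 (0.947%). Nothing is read from the SET call, because SET was chosen by that comparison. The number past an unadjusted p under 0.05 with paraoxon against control was 1 and became 2 with slide as a block and with array weights, and 1 to 2 with arrays left out. With slide as a block the SET downstream probe was no longer among them in either comparison with control, the paraoxon ones being NAP1L1 (0.55, higher) and ASF1A (-1.35, lower) and the mipafox one ASF1A (-1.06, lower). With mipafox against control it was 1 and became 2 with quantile normalization, with the median in place of the 75th percentile, with normexp, with no background subtraction and with trend and robust variance. It became 3 with the authors' processed values and with array weights, and was 1 to 3 with arrays left out (3 without mipafox A, 2 without control C). Between paraoxon and mipafox it was 0 and became 1 with normexp, no background subtraction, the authors' processed values, probes well above background on all 9 arrays, and trend and robust variance, and 0 to 1 with arrays left out. Shares of all tested probes past this limit are not given for the alternatives, so these counts are not read as a result about the members. With array weights, calls over all tested probes with mipafox against control rose from 0 to 800 (2.75%). The distance over the SET probes fell to 0.59 with paraoxon and 0.47 with mipafox under slide as a block. With the replicate letter as a block the paraoxon against mipafox number was 1 and all other counts kept their value. No pairing of the arrays by letter was seen, since correlations of same-letter deviations from the group means ran from -0.60 to 0.57. Those of different letters ran from -0.59 to 0.66. Arrays of different treatments could still deviate alike, as control C, paraoxon B and mipafox C did (0.57 to 0.66). Such a shared deviation could hide a pairing, so the check cannot exclude one. Why counts and values changed between the alternatives was not tested.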
